A study of Mus musculus with 8 samples.

Results

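The heavy chain variable genes (Ighv) supply the V segment of every mouse antibody heavy chain. They were taken as all genes of the deposited table with the biotype IG_V_gene and a name that begins with Ighv, which gave 113 of 56748 genes. All 113 lie on the minus strand of chromosome 12, at chr12:113542124-115964081 of GRCm39, a stretch of 2422 kb. They fall into 16 sequence families, of which Ighv1 is the largest with 53 genes, and their gene models are 294 to 480 bases long with a median of 353. Poly(A) RNA was sequenced from peripheral blood mononuclear cells of male wild-type (wt) C57BL/6J mice, 8 weeks old at the start and kept on a basal diet. For 1 month, 5 mice were gavaged daily with saline and 3 mice with fucoidan, a sulphated polysaccharide of the brown seaweed Undaria pinnatifida, at 200 mg/kg/day. For the fucoidan mice, 1 protocol field of the labels mentions only saline gavage; their group was taken from the sample titles, which name fucoidan. The labels call the libraries biological replicates and give 1 batch date for all of them.

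A developing B cell joins 1 V segment to a D and a J segment, and the joined exon is spliced to a constant exon, first of Ighm and Ighd (IgM and IgD), and after class switching of Ighg, Ighe or Igha. Each B cell thus transcribes mainly a single rearranged heavy chain, so in blood the reads over V segments count which V genes the circulating B cells carry, weighted by how much heavy chain RNA each cell holds. Plasma cells hold far more of it than resting B cells. In mice, Ighv11-2 and Ighv12-3 are known from B-1 cells, whose antibodies against phosphatidylcholine they encode.

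The end of the V segment, where it meets the D segment, is shown for the genes on which the results turn: the most abundant genes, both genes called lower, the gene with the highest fitted change, and both B-1 genes. Each is the last 90 coding bases, read 5′ to 3′ from GENCODE M21 transcripts (GRCm38), with the codon of the conserved cysteine in capitals. On chromosome 12 of GRCm38, minus strand, the intervals are chr12:114788372-114788461 for Ighv1-26, chr12:115294062-115294151 for Ighv8-8, chr12:114288152-114288241 for Ighv3-6 and chr12:114140692-114140781 for Ighv9-3. Those of the others are chr12:115208095-115208184 for Ighv1-55, chr12:114262652-114262741 for Ighv3-5, chr12:114048241-114048330 for Ighv11-2 and chr12:114366521-114366610 for Ighv12-3.
Ighv1-26: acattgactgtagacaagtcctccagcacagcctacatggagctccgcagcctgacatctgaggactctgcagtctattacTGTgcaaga
Ighv8-8: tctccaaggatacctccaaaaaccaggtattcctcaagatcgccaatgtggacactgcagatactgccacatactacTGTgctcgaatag
Ighv3-6: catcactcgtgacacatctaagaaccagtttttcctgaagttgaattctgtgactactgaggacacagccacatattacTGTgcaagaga
Ighv9-3: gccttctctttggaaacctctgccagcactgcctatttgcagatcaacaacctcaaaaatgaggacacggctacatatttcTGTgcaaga
Ighv1-55: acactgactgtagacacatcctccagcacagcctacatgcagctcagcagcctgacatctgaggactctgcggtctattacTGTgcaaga
Ighv3-5: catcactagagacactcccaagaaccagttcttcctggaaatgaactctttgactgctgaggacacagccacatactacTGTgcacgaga
Ighv11-2: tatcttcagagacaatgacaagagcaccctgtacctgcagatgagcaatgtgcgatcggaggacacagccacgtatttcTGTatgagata
Ighv12-3: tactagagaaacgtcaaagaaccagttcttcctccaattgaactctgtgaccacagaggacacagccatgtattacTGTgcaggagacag

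An in-frame TGT lay within the last 30 bases of 106 of the 113 coding sequences, and 63 held TGTGCAAGA there, the cysteine codon with the first bases of CDR3, the antigen-binding loop that spans the V-D-J join. Ighv11-2 and Ighv12-3 lack that string, as their last lines show. V genes are near copies of each other. Among the 113, the identity of each coding sequence to its nearest relative had a median of 94.6% (72.8% to 99.7%), and 51 genes had a relative at 95% or more. The most abundant gene, Ighv1-26, and its nearest relative, Ighv1-18, were 96.9% identical. Their last 300 coding bases, chr12:114788372-114788671 and chr12:114682632-114682931 of GRCm38, minus strand, are shown with their 8 differing bases in capitals, because reads of 150 bases had to be divided between genes on such differences.
Ighv1-26: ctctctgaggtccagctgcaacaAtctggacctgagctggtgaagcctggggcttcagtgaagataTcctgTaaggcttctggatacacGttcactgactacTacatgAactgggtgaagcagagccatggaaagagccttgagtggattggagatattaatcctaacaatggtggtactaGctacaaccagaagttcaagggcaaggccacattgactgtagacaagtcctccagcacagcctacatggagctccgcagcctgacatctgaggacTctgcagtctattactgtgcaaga
Ighv1-18: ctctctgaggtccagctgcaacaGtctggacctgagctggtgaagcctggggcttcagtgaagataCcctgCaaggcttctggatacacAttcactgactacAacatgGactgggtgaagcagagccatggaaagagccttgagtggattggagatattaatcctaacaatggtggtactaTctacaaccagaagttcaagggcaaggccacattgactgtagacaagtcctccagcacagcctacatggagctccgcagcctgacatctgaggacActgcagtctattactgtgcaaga

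Only 8 genes shared a whole window of 150 bases with another member. The closest pair was Ighv1-62-2 and Ighv1-71, with 1 mismatch. Ighv1-71 had 0 counts in every library, and how the counting treated reads that fitted both genes is not known here, so values for such pairs are uncertain.

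The libraries held 13061703 to 16334932 counts. Haemoglobin took 3.51% to 8.48% of them after saline and 13.5% to 24.1% after fucoidan. All 10 red cell markers and all 6 platelet markers were called higher with fucoidan. Summed levels were 32010 to 88530 against 155000 to 370500 CPM (counts per 1e6 of a scaled library size) for red cells. For platelets they were 1579 to 3345 against 4701 to 10050 CPM. Of 6 T cell markers, Lck was called higher (log2 change 0.59) and 5 did not overlap between the groups (summed level 438 to 566 against 650 to 830 CPM; median log2 change 0.48). B cell markers were detected in every library, and 13 of 15 were called lower (summed level 5995 to 7588 against 3616 to 5160 CPM; median log2 change -0.65); 6 of them were called without fucoidan library 3. CPM here are scaled by the trimmed mean of M values (TMM), which lowers the weight of such dominant transcripts. They are thus not shares of a library. Over all genes tested they summed to 856600 to 980200 after saline and 1059000 to 1436000 after fucoidan. Called means an adjusted p under 0.05 in edgeR's quasi-likelihood test over all 14723 genes tested. Of these, 9.11% were called higher and 4.65% lower, and 11.6% were higher without overlap.

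Heavy V transcripts made up a smaller part of the RNA after fucoidan. The Ighv genes together had 6984, 6073, 6980, 8128 and 8358 counts in saline libraries 1 to 5 and 4799, 4079 and 2286 counts in fucoidan libraries 1 to 3. They took 0.0460% ± 0.00578 (SD, n = 5) of all counts after saline and 0.0258% ± 0.00716 (SD, n = 3) after fucoidan. On the TMM scale their summed level was 395, 342, 433, 470 and 439 CPM after saline and 332, 311 and 252 CPM after fucoidan. The groups did not overlap, although fucoidan library 1 lay just under saline library 2, and the ratio of the means (416 ± 49.1 against 298 ± 41.9) was 0.718. The part of the higher red cell, platelet and T cell RNA in this difference was not tested. In bulk RNA, fewer B cells and less heavy chain RNA per B cell cannot be told apart.

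Relative to other B cell transcripts, the heavy V level overlapped between the groups. Per 100 counts of the 15 B cell markers there were 5.68, 5.70, 6.09, 6.19 and 6.72 Ighv counts after saline and 6.44, 6.66 and 6.96 after fucoidan. The groups overlapped, with means of 6.08 ± 0.427 and 6.69 ± 0.260. In each of the 3 like-numbered pairs the fucoidan library was higher (5.68 and 6.44, 5.70 and 6.66, 6.09 and 6.96). Saline libraries 1 to 3 lay below every fucoidan library, so any matching of them gives this result. The pairs also leave out saline 4 and 5 (6.19 and 6.72), so they do not show a difference within pairs. Per 100 counts of the heavy constant genes, to which the V exon is spliced, the means were 9.81 ± 0.971 after saline and 10.1 ± 0.285 after fucoidan, and the groups overlapped again. Here too the fucoidan library was the higher of each pair (8.32 and 10.4, 9.63 and 9.80, 9.78 and 10.1). Again any matching of saline 1 to 3 gives this, and saline 4 and 5 (10.4 and 10.9) are left out. Per 100 counts of Ighm alone they were 14.1 ± 1.37 and 13.4 ± 0.425, also with overlap, and the fucoidan library was higher in 1 of the 3 pairs. The kappa light chain V genes (Igkv) had 9860 to 12390 raw counts after saline and 3808 to 7483 after fucoidan, without overlap. On the TMM scale their summed level was 555 to 734 CPM after saline and 419 to 518 CPM after fucoidan. Their level per B cell marker count is not given here, so these values are no contrast to the ratios above.

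**Figure D1:**
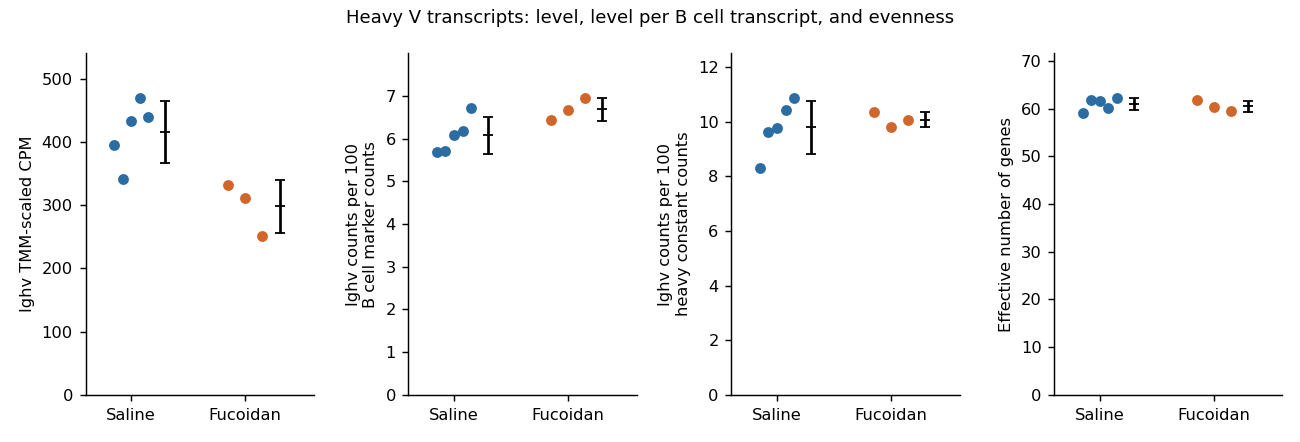
Summed heavy V level in TMM-scaled CPM, Ighv counts per 100 B cell marker counts, Ighv counts per 100 heavy constant counts, and the effective number of V genes, with 1 point a library and bars for mean and SD (n = 5 saline, n = 3 fucoidan). Only in the leftmost panel do the fucoidan libraries (252 to 332 CPM) lie below all saline libraries (342 to 470 CPM).

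Levels differed widely along the locus. Per kilobase of gene model, the mean level over the 8 libraries ran from 0 to 78.6 CPM with a median of 5.19. Ighv1-26, at chr12:114751992-114752425 of GRCm39, was the most abundant V gene, at 78.6 CPM per kb, followed by Ighv3-6 at 41.2, Ighv1-18 at 35.4 and Ighv9-3 at 34.5. Ighv1-26 had 31.1, 24.9, 32.2, 35.7 and 31.2 CPM after saline and 25.2, 22.5 and 17.9 CPM after fucoidan. Fucoidan library 1 lay just above saline library 2, so the groups overlapped. As a share of all heavy V counts, the same gene held 7.12% to 7.88% after saline and 7.13% to 7.58% after fucoidan, and these ranges overlapped almost fully. At the other end, 25 of the 113 genes did not pass the filter on low counts. They held 393 of the 47687 Ighv counts (0.824%), at most 74 counts each over all libraries, and 6 of them had 0 counts everywhere, among them Ighv16-1, the sole gene of its family. Ighv5-2 (VH81X), which lies closest to the constant genes and is known for its frequent use in fetal mouse repertoires, was at 1.59 ± 0.568 CPM after saline and 1.56 ± 0.636 after fucoidan. Ighv1-72 (VH186.2), known from the response of C57BL/6 mice to the hapten nitrophenyl, was at 5.85 ± 0.637 and 3.91 ± 0.696 CPM without overlap (log2 change -0.57, edgeR adjusted p = 0.0719). It is 99.1% identical to Ighv1-62-3 and shares 35.1% of its windows of 150 bases with another member, so its values are uncertain too. Ighv7-1, known from antibodies against phosphorylcholine, was at 1.18 ± 0.379 and 1.17 ± 0.756 CPM.

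**Figure D2:**
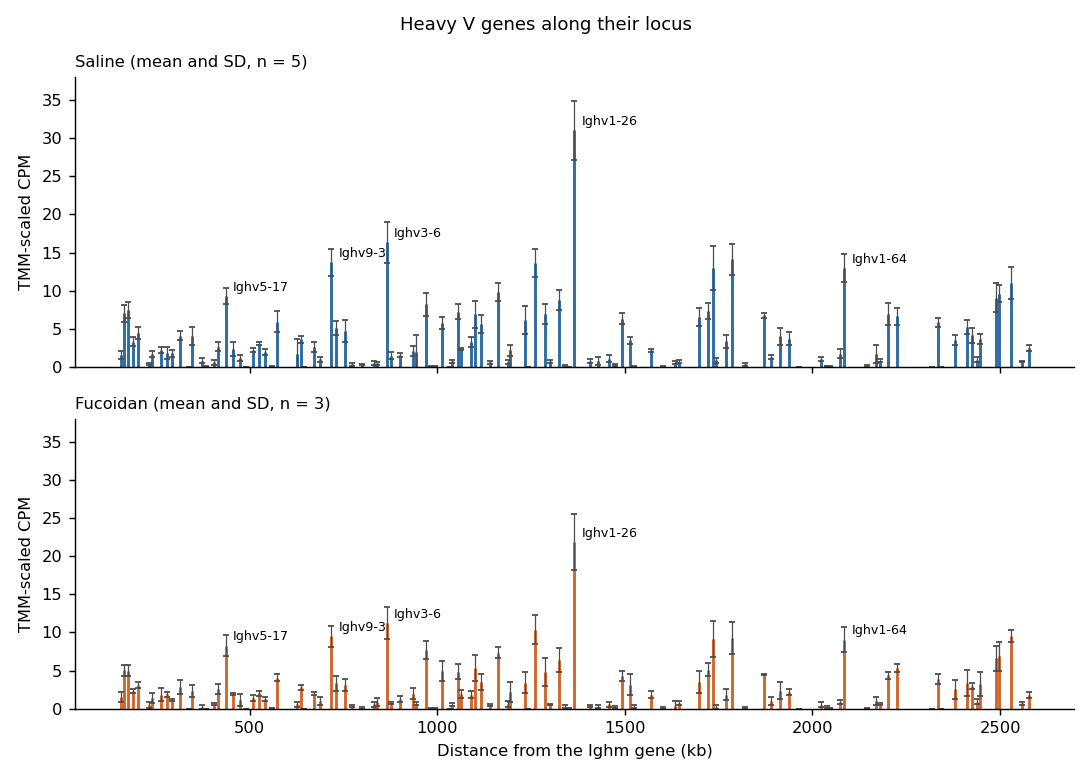
Mean TMM-scaled CPM of each of the 113 heavy V genes against its distance from Ighm in kb, after saline (upper panel, n = 5) and fucoidan (lower panel, n = 3), with SD as bars. Ighv1-26 stands highest in both panels (31.0 ± 3.87 and 21.9 ± 3.67 CPM), and the profile of high and low genes is alike in shape and lower after fucoidan.

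Gene by gene, nearly all heavy V genes had lower fitted values after fucoidan, but few passed the test. Of the 88 genes that passed the filter, 2 were called lower (2.27%, against 4.65% of all genes tested) and 0 higher (9.11% of all genes tested). The called genes were Ighv8-8 and Ighv1-26. At an unadjusted p under 0.05, 37 of the 88 were lower (42.0%, against 13.3% of all genes tested) and 0 higher, and no gene was called higher by DESeq2 or limma-voom either. A further 14 had an adjusted p between 0.05 and 0.1. The fitted log2 change was below 0 for 82 of 88 genes (93.2%, against 55.1% of all genes tested), with a median of -0.50 beside -0.04 over all genes tested. In 17 genes all fucoidan libraries lay below all saline libraries (19.3%, against 11.0% of all genes tested), and in 0 above (11.6% of all genes tested).

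Ighv8-8, at chr12:115257682-115258124 of GRCm39, showed the tightest groups. It had 6.85, 6.59, 6.64, 7.34 and 6.62 CPM after saline and 4.57, 4.43 and 4.40 CPM after fucoidan, which did not overlap. The fitted fold was 0.657 (log2 change -0.61, SE 0.154, edgeR adjusted p = 0.0240). Ighv1-26 fell to 0.707-fold (log2 change -0.50, SE 0.144, edgeR adjusted p = 0.0416). With the replicate number as a block both calls were lost (edgeR adjusted p = 0.129 for Ighv8-8 and 0.126 for Ighv1-26), and 0 heavy V genes were called (2.98% of all genes tested were called lower). Single libraries also decided these calls: that of Ighv8-8 was lost without saline 4 or any fucoidan library, and that of Ighv1-26 without saline 1, 3, 4 or 5 or fucoidan 2 or 3. Without a filter on low counts, Ighv8-8 was not called (edgeR adjusted p = 0.0869).

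Several other abundant genes came close to the threshold without passing it. Ighv9-3 was at 13.7 ± 1.78 and 9.47 ± 1.43 CPM (log2 change -0.53, edgeR adjusted p = 0.0518). Ighv1-55 was at 14.1 ± 2.02 and 9.27 ± 2.12 CPM without overlap (log2 change -0.60, edgeR adjusted p = 0.0525). Ighv3-6 was at 16.3 ± 2.68 and 11.2 ± 2.10 CPM (log2 change -0.54, edgeR adjusted p = 0.0689). Other abundant genes lay further from it: Ighv1-82 was at 11.0 ± 2.09 and 9.55 ± 0.767 CPM (log2 change -0.20, adjusted p = 0.501) and Ighv5-17 at 9.31 ± 1.00 and 8.28 ± 1.42 CPM (log2 change -0.18, adjusted p = 0.520). Between these, Ighv1-18 had a log2 change of -0.39, Ighv1-53 of -0.50, Ighv1-64 of -0.51 and Ighv1-9 of -0.42, with adjusted p of 0.0706 to 0.173 in edgeR.

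Among the 29 genes with a mean of at least 5 CPM, the lowest fitted changes were those of Ighv1-50 (log2 change -0.88), Ighv1-15 (-0.82), Ighv1-69 (-0.67), Ighv8-8 (-0.61) and Ighv1-55 (-0.60). The highest were those of Ighv6-3 (-0.08), Ighv5-17 (-0.18), Ighv1-82 (-0.20), Ighv6-6 (-0.21) and Ighv8-12 (-0.33). All 29 were thus below 0. Their log2 changes had a median of -0.51 and an SD of 0.173 between genes, beside a median SE of 0.186 per gene. The spread between these genes was thus close to the median error of 1 gene, while the SE of Ighv1-26 and Ighv8-8 lay below it. Each SE also holds the spread of the summed Ighv level between libraries, which these genes share. The nearness of SD and SE therefore does not show that the genes changed alike. The highest fitted change of all was that of a scarce gene, Ighv3-5, which had 6, 7, 8, 6 and 17 counts after saline and 14, 18 and 3 after fucoidan. Those groups overlapped (log2 change 0.88, SE 0.502, edgeR adjusted p = 0.284).

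**Figure D3:**
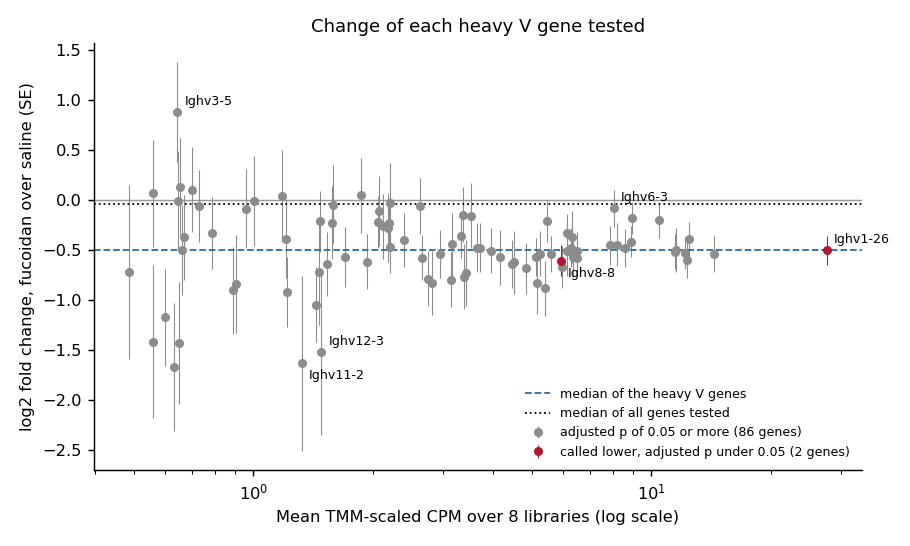
Log2 fold change (fucoidan over saline) with its SE for the 88 heavy V genes tested, against the mean TMM-scaled CPM over 8 libraries on a log axis. The points gather around the median of -0.50 (dashed line), below the -0.04 of all genes tested (dotted line), and the 2 called genes, Ighv8-8 (-0.61) and Ighv1-26 (-0.50), lie close to that median.

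Within the heavy V transcripts, the make-up of the repertoire was close in both groups. The effective number of V genes, the exponential of the Shannon entropy of their shares, was 59.0, 61.7, 61.7, 60.2 and 62.2 after saline and 61.7, 60.2 and 59.5 after fucoidan. These overlapped (60.9 ± 1.34 against 60.5 ± 1.13). The 10 most abundant genes of each library held 35.2% ± 1.14 and 35.9% ± 0.365 of heavy V counts. At least 1 count was found for 100 to 102 genes after saline and 95 to 103 after fucoidan. At least 10 counts were found for 81 to 87 and 62 to 81, and the fucoidan libraries also had fewer Ighv counts. At an equal depth of 2286 Ighv counts, 96.4 ± 0.286 and 96.2 ± 1.68 genes would be expected, so no difference in the number of genes was detectable at this depth. Rank correlations of gene shares over the 88 genes, a description across genes of libraries that share their genes and their abundances, were 0.917 to 0.968 between saline libraries, 0.894 to 0.947 between fucoidan libraries and 0.902 to 0.956 across groups.

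By position, the third of the locus nearest to the constant genes (43 genes) held 30.8% ± 1.05 of heavy V counts after saline and 31.3% ± 1.79 after fucoidan. The middle stretch (39 genes) held 39.7% ± 0.606 and 40.1% ± 0.700, and the farthest (31 genes) 29.5% ± 1.02 and 28.7% ± 1.43. All of these overlapped, and the median log2 changes were -0.48, -0.50 and -0.50. V genes near the constant genes and those at the far end thus had like values.

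By family, Ighv1 held 58.4% ± 1.43 of heavy V counts after saline and 56.8% ± 2.98 after fucoidan. Ighv5 held 8.14% ± 0.307 and 9.29% ± 1.39, with fucoidan library 3 highest at 10.9%. Ighv6 was the one family of 16 whose shares did not overlap: 3.19%, 3.72%, 3.15%, 3.79% and 3.22% after saline and 4.38%, 4.41% and 4.07% after fucoidan, a ratio of 1.26. Both of its tested genes contributed. Ighv6-3 held 1.68% to 2.29% after saline and 2.38% to 2.84% after fucoidan, and Ighv6-6 held 1.22% to 1.48% and 1.49% to 1.92%. These 2 were the genes of 88 with higher shares in every fucoidan library (31.6% of all genes tested were higher per Ighv count), and Ighv9-4 was the 1 with lower shares in every fucoidan library (0.761% of all genes tested). On the CPM scale Ighv6-3 had a log2 change of -0.08 (edgeR adjusted p = 0.828) and Ighv6-6 of -0.21 (0.566), so the higher share stood beside a level that did not pass the test.

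**Figure D4:**
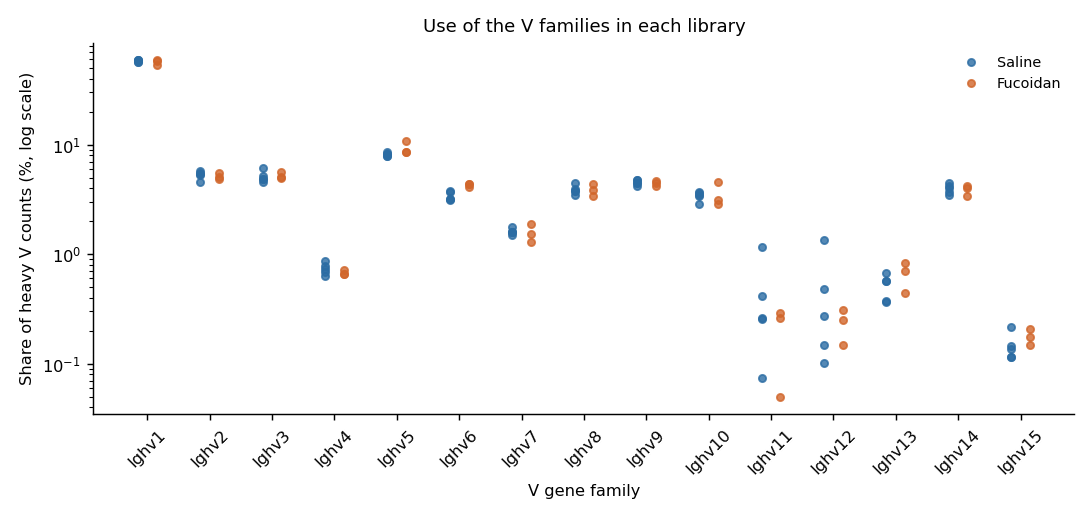
Share of heavy V counts in each V family in percent on a log axis, with 1 point a library (5 saline, 3 fucoidan); Ighv16, at 0 in every library, is not drawn. Only in Ighv6 do the shares not overlap between the groups (3.15% to 3.79% against 4.07% to 4.41%). Ighv11 and Ighv12 spread most, with 1 saline library above 1%.

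The most uneven genes between libraries were those of the B-1 repertoire. Ighv12-3 had 0.396, 1.63, 1.18, 0.694 and 5.88 CPM after saline and 0.831, 0.458 and 0.770 CPM after fucoidan. Ighv11-2 had 0.962, 0.844, 1.67, 0.289 and 5.10 CPM after saline and 0.900, 0.153 and 0.660 CPM after fucoidan. Saline library 5 was the highest for both, at 3.60 and 3.04 times the next library, and the groups overlapped. In counts this library held 112 of Ighv12-3 and 97 of Ighv11-2, whereas the others held 6 to 29 and 2 to 27. Their low fitted values (log2 change -1.52, SE 0.827, edgeR adjusted p = 0.261 and -1.63, SE 0.876, edgeR adjusted p = 0.254) rested on it, and became -0.51 and -0.71 when saline library 5 was left out. Without it the saline means were 0.975 and 0.942 CPM instead of 1.96 and 1.77, beside fucoidan means of 0.686 and 0.571. Ighv12-3 has its nearest relative among the members at 78.6% identity (Ighv3-6), whereas Ighv11-2 is 98.9% identical to Ighv11-1, which did not pass the filter.

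In mice, B-1 antibodies against phosphatidylcholine typically pair the Ighv11-2 chain with Igkv14-126 and the Ighv12-3 chain with Igkv4-91. These light chain genes were chosen after the heavy chain values were seen. Igkv14-126 had 4.13, 5.01, 5.95, 2.25 and 7.98 CPM after saline and 1.66, 2.60 and 1.32 CPM after fucoidan. Igkv4-91 had 6.34, 4.45, 8.50, 5.20 and 12.4 CPM after saline and 3.53, 4.89 and 2.53 CPM after fucoidan. Both were likewise highest in saline library 5, which was the highest library for 13 of 85 Igkv and 19 of 88 Ighv genes tested. Igkv14-126 was called lower (log2 change -1.43, SE 0.399, edgeR adjusted p = 0.0368), a call that was lost without saline 2, 3 or 5 or fucoidan 1 or 3 (adjusted p = 0.0542 to 0.156), and Igkv4-91 was not (log2 change -0.998, adjusted p = 0.0868). Such a call was not particular to this gene. Of the 85 Igkv genes tested, 14 were called lower and 0 higher, with a median log2 change of -0.46. Over all genes tested, 4.65% were called lower and 9.11% higher. Zbtb32, a factor of B-1 cells, was also highest in saline library 5, at 4.47, 3.88, 6.33, 4.97 and 17.1 CPM after saline and 5.40, 3.13 and 4.51 CPM after fucoidan. Its log2 change of -0.76 (edgeR adjusted p = 0.335) became -0.17 without that library. Bhlhe41, a further B-1 factor, was highest there as well, at 9.24 CPM beside 5.26 to 8.61 in the other saline libraries and 3.74 to 5.40 after fucoidan (log2 change -0.63, edgeR adjusted p = 0.0941). Of the 6 B-1 markers, 2 were called higher with fucoidan and 0 lower, beside 9.11% and 4.65% of all genes tested (median log2 change 0.32). The called ones were Cd9, which platelets also express (log2 change 1.46), and Spn, which T cells also express (log2 change 0.46). Cd9, Spn, Cd5 and Plscr1 were not highest in saline library 5. Cd9 was at 396 CPM there, its lowest of all libraries, and Spn at 292 beside 329 in saline library 1. Cd5 was at 56.25 beside 58.66 in saline library 1. Plscr1 was at 12.45, its highest saline value, beside 12.98 in fucoidan library 3.

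**Figure D5:**
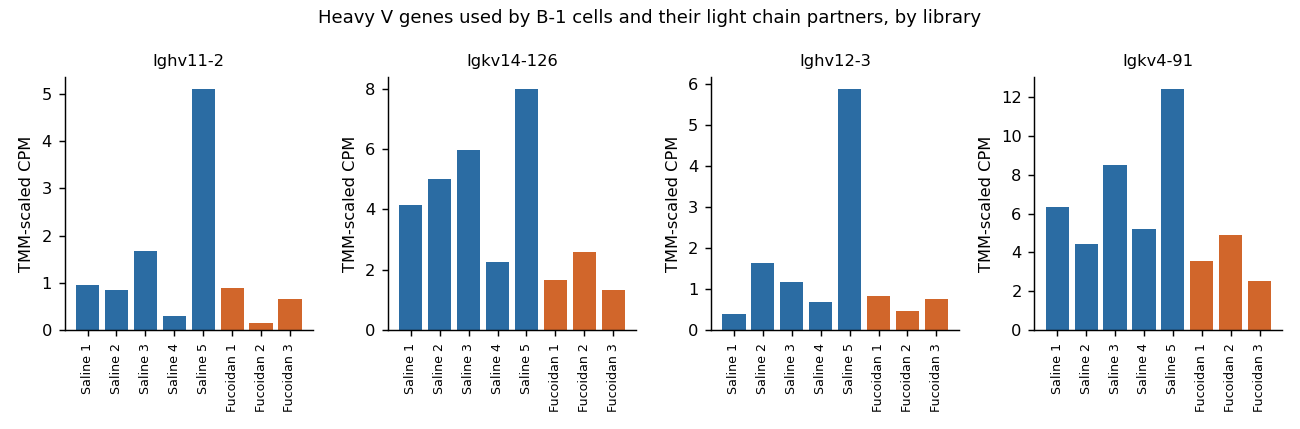
TMM-scaled CPM of Ighv11-2 and Ighv12-3 and of their usual light chain partners Igkv14-126 and Igkv4-91, with 1 bar a library (5 saline, 3 fucoidan). Saline library 5 is the highest bar in all 4 panels, at 5.10, 7.98, 5.88 and 12.4 CPM from left to right.

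Other genes stood out in 1 library at lower ratios. Ighv1-66 was at 3.72 CPM in saline library 3 and at most 1.68 CPM elsewhere. Ighv2-6 was at 2.67 CPM in the same library, with means of 1.78 ± 0.507 and 1.13 ± 0.129 CPM. Ighv9-4 was at 2.26 CPM in saline library 5, with means of 1.48 ± 0.441 and 0.775 ± 0.120 CPM and no overlap (log2 change -0.92, edgeR adjusted p = 0.114).

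The constant exons to which the V segments are spliced did not all have the same fitted change. Ighd, the constant gene of IgD, which naive B cells co-express with IgM from 1 transcript by splicing, fell from 1095 ± 209 to 527 ± 54.8 CPM (log2 change -1.06, SE 0.169, edgeR adjusted p = 0.00396). Ighm was at 2948 ± 303 and 2239 ± 380 CPM and was not called (log2 change -0.40, SE 0.149, edgeR adjusted p = 0.105). Per 100 counts of Ighm there were 36.9, 34.7, 39.2, 43.8 and 30.4 counts of Ighd after saline and 22.5, 23.0 and 25.7 after fucoidan, without overlap. Of the other constant genes tested, Ighg3, an IgG class, fell from 7.17 ± 0.796 to 4.53 ± 0.555 CPM (log2 change -0.67, edgeR adjusted p = 0.0269), a call lost with the replicate block (adjusted p = 0.0608) and without saline 3 or any fucoidan library (0.0503 to 0.102). Igha, the IgA gene of many switched plasma cells, was at 51.8, 255 and 194 CPM in the fucoidan libraries and at 123 to 189 after saline, so it was lowest and highest within the fucoidan group. In all, 2 of 7 heavy constant genes were called lower and 0 higher, beside 4.65% and 9.11% of all genes tested, with a median log2 change of -0.54.

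Of 15 factors that bind V promoters or the heavy locus, 5 were called lower and 0 higher (median log2 change -0.29). Over all genes tested, 4.65% were called lower and 9.11% higher. The 5 were Ebf1, an early B cell factor (log2 change -0.65, edgeR adjusted p = 0.0155), the E proteins Tcf4 (-0.52, 0.0178) and Tcf3 (-0.40, 0.0333), Pou2f2, which encodes the octamer factor of V promoters (-0.45, 0.0273), and the B cell factor Pax5 (-0.62, 0.0463). Ebf1 and Pax5 are also among the B cell markers, whose summed level is given above. The count was 2 with the replicate block, 0 without fucoidan library 3, 2 without saline 4 or 5, and 3 without saline 3, fucoidan 1 or fucoidan 2. Of 15 tested genes for V(D)J recombination and class switching, 0 were called by edgeR or DESeq2 and 1 by limma-voom, with a median log2 change of -0.17. Over all genes tested, edgeR called 13.8%, DESeq2 16.9% and limma-voom 18.2% in either direction. At an unadjusted p under 0.05 in edgeR, 2 of the 15 were lower, beside 13.3% of all genes tested. Rag1, which cuts the V segments in developing B cells, was at 3.48 ± 1.66 and 3.08 ± 0.913 CPM. Of 11 tested plasma cell genes, 3 were called lower and 0 higher, beside 4.65% and 9.11% of all genes tested (median log2 change -0.21). The 3 were Tnfrsf13b, the receptor TACI (log2 change -0.94), Mzb1, a chaperone of antibody secretion (-0.92), and Sdc1, the plasma cell surface marker CD138 (-0.77). The call of Mzb1 was lost with the replicate block and without saline 3, 4 or 5 or fucoidan 1 or 3, and that of Sdc1 without fucoidan 1 or 3. With scaling on B cell marker counts, 0 plasma cell genes were called lower, beside 0.278% of all genes tested. Jchain, which links IgM and IgA into polymers, had a log2 change of -0.06 and an edgeR adjusted p of 0.939. Fitted changes were below 0 for 7 of the 11 plasma cell genes. They were above 0 for Prdm1 (0.85), Derl3 (0.73), Xbp1 (0.27) and Sec11c (0.11), none of which was called. Without overlap, 4 of the 11 were lower and 1 higher, beside 11.0% and 11.6% of all genes tested. The higher one was Derl3, at 1.04 to 2.48 CPM after saline and 2.49 to 2.75 after fucoidan. Among the 4 lower ones was Fkbp11, with the lowest fitted change of the list (log2 change -1.19, edgeR adjusted p = 0.0736).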

How the data were processed

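The authors deposited raw counts per gene, 1 column a library. Per the submitters' processing notes, reads (2 of 150 bases) were handled with cutadapt 4.0, Trimmomatic 0.39 and HISAT2 2.2.1 on GRCm39. The counting program, annotation release, strand setting and treatment of reads that fit several genes were not stated in these sources. Reads over V-D-J junctions or somatic mutations may align less often, which was not tested.

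Counts were filtered with filterByExpr (14723 genes kept) and tested in edgeR 4.0.16 (R 4.3.3) with TMM factors and the robust quasi-likelihood test on all 8 libraries. P-values were adjusted by Benjamini-Hochberg over all genes tested, and a gene was called under 0.05. The SE is the absolute log2 change over the square root of the F statistic. Sums, shares and diversity are given with SD and overlap and without a test. Alternatives used limma 3.58.1, DESeq2 1.42.0, other scalings and filters, left-out libraries and a replicate block.

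Libraries that share a replicate number deviated together from their group means (correlations 0.202, 0.261 and 0.223). The other pairs were at -0.291 to 0.204. Saline 5 with fucoidan 2, at 0.204, thus exceeded like-numbered pair 1, so this evidence for pairing is weak. It comes from the expression values alone, and the labels do not state a pairing. The main test was unpaired, and the numbers served as pairs only in the replicate block and in the like-numbered comparisons.

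Coding sequences came from GENCODE M21 transcripts (GRCm38), matched by gene ID for 113 of 113 genes; GRCm39 positions are those of the count table. Heavy V promoters and proteins were not analysed here. Named genes are the 10 most abundant, the called ones, the 5 highest and 5 lowest changes at a mean of at least 5 CPM, 5 genes with the largest ratio of highest to next library at a mean of at least 1 CPM, and Ighv11-2, Ighv12-3, Ighv7-1, Ighv1-72 and Ighv5-2, with up to 4 called genes a list; Pax5, Ighm, Igha, Rag1, Jchain, Ighv3-5 and others outside this rule were chosen after their values were seen. The members and lists were chosen with earlier results of these data known.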

Additional observations from a re-analysis of the deposited data

Results flagged for a closer look

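In the saline group of 5, the highest or lowest library stood apart by Dixon's criterion for 10 of 51 values checked; chance gives about 1 in 20 groups, and many of these values share libraries. Saline library 5 was highest for Ighv12-3 (5.88 CPM), Ighv11-2 (5.10 CPM), Ighv9-4 (2.26 CPM) and the share of heavy V counts in the third of the locus nearest to the constant genes (32.6%). Saline library 3 was highest for Ighv1-66 (3.72 CPM) and Ighv2-6 (2.67 CPM). Saline library 2 was lowest for Ighv9-3 (10.6 CPM), Ighv1-9 (7.94 CPM) and the summed Igkv counts (9860). Saline library 1 was highest for the share held by the 10 most abundant genes (37.2%).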

How the results depend on the processing

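The number of heavy V genes called lower, 2 in the reported analysis, was 9 with upper-quartile factors (6.72% of all genes tested there were called lower), 9 with limma-voom (7.13%), 7 with DESeq2 (5.80%), 6 with at least 10 counts in every library (5.81%), 4 without a filter (2.33%), and 0 with the replicate block, with scaling on B cell marker counts (0.278%) or on Ighv counts (0.312%). It ranged from 0 to 12 when 1 library was left out (12 without saline 2, where 4.57% of all genes tested were called lower; 1 without saline 3, 3.07%, or 5, 3.71%; 0 without saline 4, 2.25%, fucoidan 2, 2.08%, or fucoidan 3, 1.20%). Ighv8-8 was called in 11 and Ighv1-26 in 10 of 19 settings. The number called higher was 2 (Ighv6-3 and Ighv3-5) with scaling on B cell markers, where 53.0% of all genes were called higher, and 0 in the other settings. The median log2 change of -0.50 became 0.10 with that scaling, -0.031 with scaling on Ighv counts and -0.42 with the replicate block, and -0.57 to -0.39 with 1 library left out. With at least 10 counts required, fucoidan libraries had 12.1 fewer heavy V genes on average (difference -12.1). The cause of these shifts was not tested, but scaling on a group of genes sets that group's own change near 0 by construction.

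Log2 changes that turned positive with scaling on B cell markers were those of Ighv1-26 (0.11), Ighv3-6 (0.069), Ighv1-18 (0.22), Ighv9-3 (0.078), Ighv1-53 (0.090), Ighv1-64 (0.091), Ighv1-82 (0.41), Ighv5-17 (0.47), Ighv1-9 (0.20), Ighv8-8 (0.0091), Ighv6-3 (0.53), Ighv6-6 (0.38), Ighv8-12 (0.29), Ighv1-72 (0.024), Ighv5-2 (0.60), Ighm (0.21), Tcf4 (0.084), Pou2f2 (0.17) and Tcf3 (0.21). With scaling on Ighv counts this held for Ighv1-18 (0.081), Ighv1-82 (0.27), Ighv5-17 (0.32), Ighv1-9 (0.061), Ighv6-3 (0.39), Ighv6-6 (0.25), Ighv8-12 (0.15), Ighv5-2 (0.46), Ighm (0.069), Pou2f2 (0.023) and Tcf3 (0.062). Ighv6-3 was at 0.081 with the replicate block and at -0.19 to 0.033 with 1 library left out; Ighv7-1 was at -0.0095 with upper-quartile factors, -0.0085 with the block and -0.40 to 0.44 with 1 library left out; Ighv5-2 was at -0.28 to 0.28. The blocked fit changed the calls named in the report and those of Pou2f2 (adjusted p = 0.0709), Tcf3 (0.0724), Pax5 (0.140) and Mzb1 (0.108), and not those of Ighd, Ebf1, Tcf4, Sdc1, Tnfrsf13b or Igkv14-126. The effective number of genes, the locus shares and the shares of Ighv1, Ighv2, Ighv3, Ighv5, Ighv6, Ighv8, Ighv9, Ighv10 and Ighv14 differed between groups by amounts that moved by less than 1 pooled SD of the libraries under every alternative tried for them. With 1 library left out, the difference (fucoidan minus saline, percentage points) still ranged from -2.72 to 0.15 for Ighv1, 0.353 to 1.56 for Ighv5, 0.805 to 0.980 for Ighv6, -0.41 to 0.45 for Ighv10 and -0.522 to 1.17 for the genes nearest to the constant genes. Its sign depended on 1 library for the effective number, for the nearest and middle parts of the locus and for Ighv1, Ighv3, Ighv8, Ighv9, Ighv10 and Ighv14. The means of Ighv11-2 and Ighv12-3 without saline library 5 were a choice made after seeing the data. Fucoidan library 3, with 2286 Ighv counts, limits what scarce genes can show.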
